A study of Mus musculus with 10 samples.

Results

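The genes described here are the 60 genes of the Wnt pathway among the 21792 genes with a value in the kidney cortex of 10 mice. They were chosen by symbol: every Wnt, Fzd, Sfrp, Dkk, Rspo and Dvl gene with a number in its name, every gene whose symbol begins with *Tcf7*, and *Lrp5*, *Lrp6*, *Frzb*, *Wif1*, *Axin1*, *Axin2*, *Lef1*, *Ctnnb1*, *Apc*, *Lgr4*, *Lgr5*, *Rnf43*, *Znrf3*, *Porcn* and *Wls*. The rule uses no expression value. Of the genes that the rule would take, *Wnt3a*, *Rspo2* and *Dkk4* were not analysed here. *Rspo4os*, a noncoding antisense gene at the *Rspo4* locus, entered by its symbol.

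All mice were male C57BL/6 animals of WT genotype, 8 weeks old at the start. The 4 sham mice received PBS. The 6 mice with aristolochic acid nephropathy (AAN) received 1 intraperitoneal injection of aristolochic acid, a plant nephrotoxin, at 5 mg/kg. Cortex was taken at day 28 from both groups, and each library came from 1 mouse. The level of a gene is given in FPKM, the fragments per kilobase of transcript scaled to the number of fragments in the library, so that levels of different genes can be set side by side.

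Wnt proteins are secreted, lipid-bearing signals that bind Frizzled receptors together with the co-receptors *Lrp5* and *Lrp6*. In the canonical branch, receptor engagement recruits Dishevelled and stops the Axin and *Apc* complex from destroying β-catenin (*Ctnnb1*), which then enters the nucleus and works with TCF/LEF factors on target genes. The pathway forms nephrons in the embryo, is quiet in most of the adult kidney, and is known to be turned on again in injured tubules and in the interstitium of fibrotic kidneys.

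The depth recovered from the values was 15.8 to 17.4 M fragments in the sham and 13.4 to 16.5 M in the AAN mice, so a level of 0.1 FPKM rests on a handful of fragments. As deposited, the values of most genes lay higher after aristolochic acid: of the 17129 genes tested, 82.3% had a log2 fold change above 0, and the median was 0.75. Between 39.5% and 61.4% of the FPKM total of a sham mouse, and between 21.4% and 55.0% of that of an AAN mouse, came from mitochondrial transcripts. Changes are therefore also given relative to the median of all genes, and with the mice scaled by the median of ratios, where that median was 0.06, or by quantile normalization, where it was -0.13. The labels give no sequencing batch, and a batch that follows the groups cannot be told apart from them. Sham mouse B607 and AAN mouse B614 stood apart from their groups in the same direction, and the results are also given without them. Because the RNA is of whole cortex, more cells of a type and more RNA per cell cannot be told apart in any value below.

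Of the 60 genes, 49 had a mean of at least 0.1 FPKM and were tested, and 23 of these rose in AAN mice while 0 fell, where a call needed a change of 2-fold or more and an adjusted p no larger than 0.05 (limma, Benjamini-Hochberg over all genes tested). Over all genes the same limits called 39.2%, with 35.8% higher and 3.43% lower. In 24 of the 49 every AAN mouse lay above every sham mouse and in 0 below, beside 40.3% and 3.25% of all genes. The genes that rose were 9 ligands, 5 Frizzled receptors, 4 secreted antagonists, 3 of the TCF/LEF factors, the feedback inhibitor *Axin2* and the ubiquitin ligase *Rnf43*. Another 6 genes, *Porcn*, *Fzd8*, *Dkk2*, *Dvl2*, *Ctnnb1* and *Tcf7l2*, passed the adjusted p but stayed under 2-fold, and 20 did not pass the adjusted p. The median log2 fold change of the 49 was 0.96 beside 0.75 for all genes. A gene that passed the level filter through the AAN mice alone had to differ, so these counts describe the genes and support nothing further. Among the genes that rose, *Wnt2*, *Wnt7a*, *Wnt10b*, *Wnt11*, *Wnt16*, *Axin2* and *Lef1* passed the filter in this way.

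The Wnt genes differed in how large the change was and in whether the call outlasted another scaling between mice. *Wnt4*, *Wnt7b*, *Wnt10a*, *Wnt2*, *Dkk3*, *Axin2* and *Tcf7* were called higher as deposited and under all 3 scalings between mice. The other 16 were called higher as deposited but lost the call under at least 1 scaling. With the median of ratios 12 of the 49 were called higher and 0 lower, where 29.6% of all genes were called, 19.0% higher and 10.5% lower. There 17 of the 49 log2 fold changes lay below 0. With quantile normalization 7 were higher and 2 lower, where 25.6% of all genes were called, 13.0% higher and 12.6% lower, and 28 of the 49 lay below 0. With every mouse scaled to the same FPKM total, 32 were higher and 0 lower, where 53.5% of all genes were called, 51.6% higher and 1.94% lower.

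**Figure D1:**
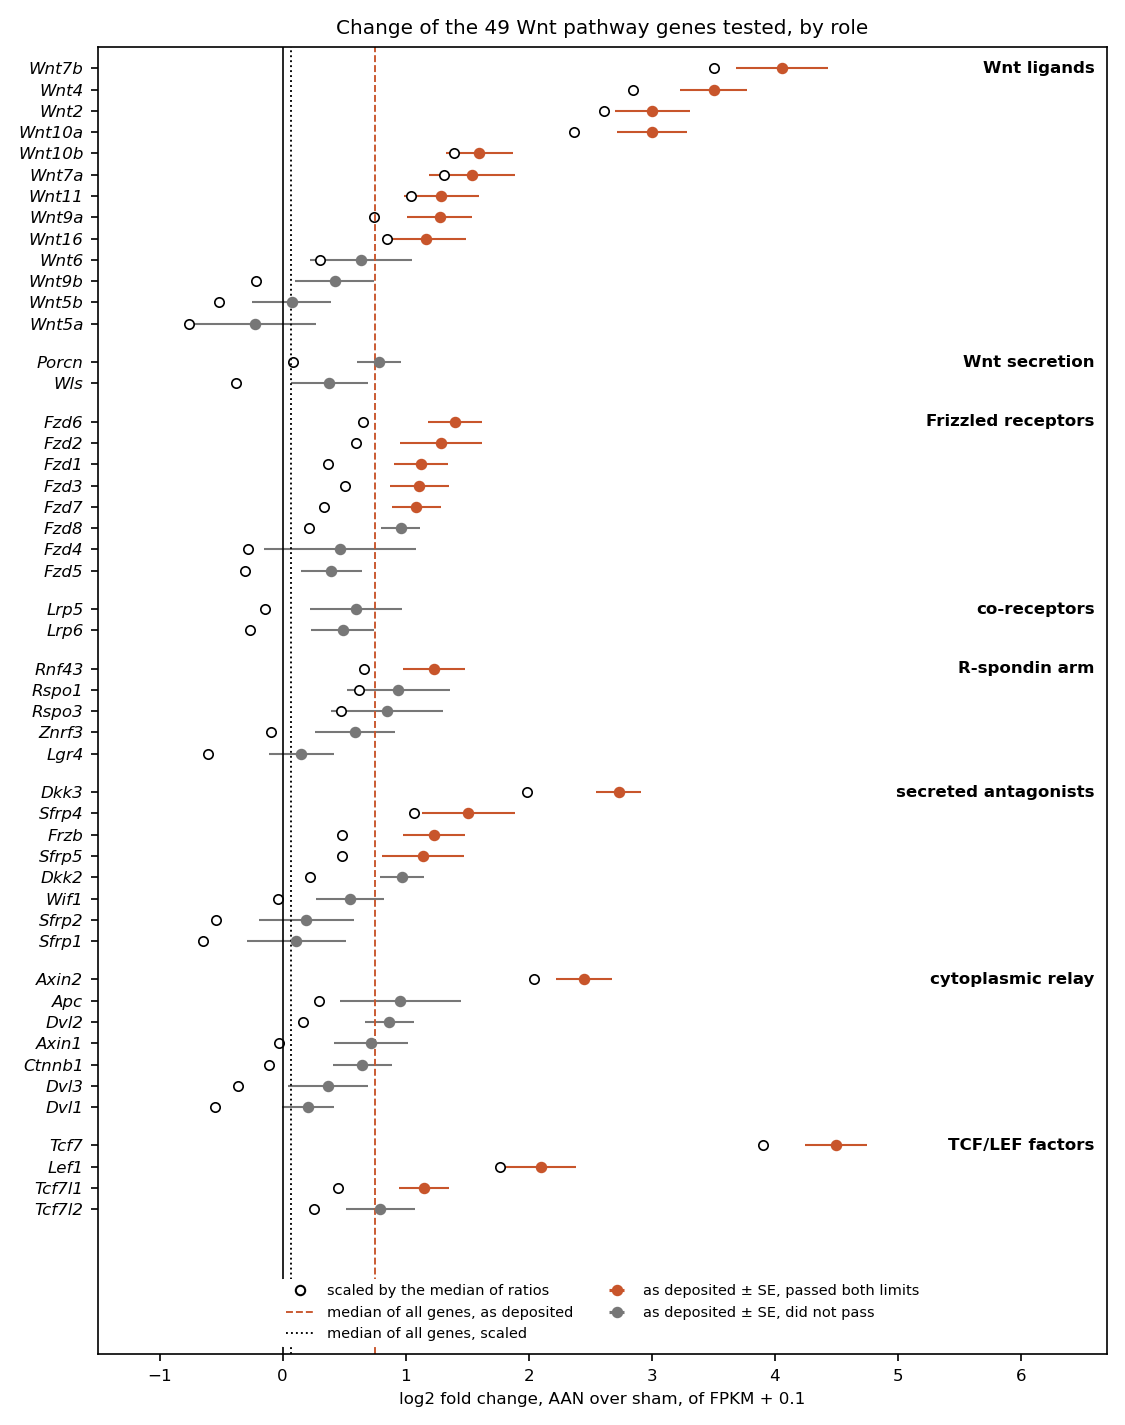
Log2 fold change of AAN over sham mice for the 49 genes tested, grouped by role, with filled points for values as deposited (bars, standard error) and open points for values scaled by the median of ratios; the dashed and dotted lines mark the medians of all genes at 0.75 and 0.06. The largest changes as deposited are those of *Tcf7* (4.497), *Wnt7b*, *Wnt4*, *Wnt2* and *Wnt10a* (2.999), and the open points of *Lrp5*, *Lrp6*, *Sfrp1*, *Lgr4* and *Dvl1* lie below 0.

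Among the ligands, *Wnt4* had the smallest adjusted p. *Wnt4* (ENSMUSG00000036856, GRCm38 chromosome 4 from 137277489 to 137299726, plus strand) is a ligand needed for nephron formation. Its level was 0.163, 0.376, 0.261 and 0.333 FPKM in the 4 sham mice, and 2.52, 4.33 and 6.50 FPKM as the lowest, median and highest of the 6 AAN mice. Every AAN mouse lay above every sham mouse, with about 166 to 423 fragments against 12 to 25. The log2 fold change was 3.50 (SE 0.27, limma adjusted p = 8.02e-07), which is 2.75 above the median of all genes.

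*Wnt7b* (chromosome 15 from 85535437 to 85582473, minus strand), a ligand with a role in the growth of the medulla, had the highest mean of the ligands in AAN mice, although *Wnt4* was higher in mice B630 and B639. Sham mice had 0.285, 0.0429, 0.0826 and 0.495 FPKM, and AAN mice had 3.52, 4.44 and 6.35 FPKM (lowest, median, highest). The groups were far apart although the sham values spanned a wide range. *Wnt7b* had a log2 fold change of 4.06 (SE 0.37, limma adjusted p = 3.03e-06). An annotated gene on the opposite strand, *AU022754*, overlaps its exons, and since the strand of the counting is not stated, the part of that gene in the value is uncertain.

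*Wnt10a* (chromosome 1 from 74791516 to 74804179, plus strand), known for its role in teeth, hair and skin, followed the same pattern. Its sham levels were 0.0804, 0.333, 0.214 and 0.278 FPKM, and its AAN levels 1.502, 2.37 and 3.27 FPKM (lowest, median, highest). No AAN mouse overlapped the sham range, and the log2 fold change was 2.999 (SE 0.28, limma adjusted p = 3.71e-06). *Wnt2* (chromosome 6 from 17988940 to 18030585, minus strand), a ligand expressed by stromal cells of several organs, was nearly absent from sham cortex. It was listed at 0 in 2 sham mice and at 0.0760 and 0.135 FPKM in the others, which stands for at most 5 fragments. The AAN mice had 0.646, 1.095 and 1.39 FPKM (lowest, median, highest), or about 24 to 51 fragments. Its log2 fold change was 3.004 (SE 0.30, limma adjusted p = 6.18e-06), and with a pseudocount of 1 in place of 0.1 it was 0.97, under the 2-fold limit.

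The 5 other ligands that rose stayed low, with AAN means between 0.207 FPKM (*Wnt11*) and 0.511 FPKM (*Wnt9a*). *Wnt9a*, a ligand of joint and blood stem cell development, rose from 0.144 ± 0.0293 (SD, n = 4) to 0.511 ± 0.183 FPKM (SD, n = 6). *Wnt10b*, an inhibitor of fat cell formation, was listed at 0 in all 4 sham mice, where 3 fragments over its longest transcript would be at most 0.0703 FPKM, and at 0.0830 to 0.340 FPKM in AAN mice. *Wnt7a*, a ligand of limb and brain development, rose from 0.00806 ± 0.0161 to 0.237 ± 0.143 FPKM. *Wnt11*, a ligand of ureteric branching, and *Wnt16*, known from bone, rose to 0.207 ± 0.0855 and 0.207 ± 0.119 FPKM (SD, n = 6). *Wnt7a*, *Wnt10b* and *Wnt11* kept the call with the median of ratios, *Wnt9a* and *Wnt16* did not, and none of the 5 kept it with quantile normalization.

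The other 4 ligands tested did not pass. *Wnt5a* and *Wnt5b* are ligands best known for β-catenin independent signalling, and *Wnt9b* is the ureteric bud signal to the nephron progenitors. *Wnt5b* was at 0.412 ± 0.190 FPKM in the sham and 0.428 ± 0.178 FPKM in the AAN group (SD, n = 4 and 6). *Wnt5a* was at 0.285 ± 0.0777 FPKM in the sham and 0.315 ± 0.338 FPKM in the AAN group (SD, n = 4 and 6), and its log2 fold change of -0.23 was the only negative one among the 49 as deposited, though it was 0.04 with every mouse at the same FPKM total. The AAN mean was carried by mouse B614 at 0.925 FPKM, beside an AAN median of 0.163 FPKM, and without B607 and B614 the log2 fold change was -0.60 (limma adjusted p = 0.251). Both were called lower after quantile normalization, with log2 fold changes of -1.43 for *Wnt5a* and -1.20 for *Wnt5b*, while *Wnt5b* lay just above 0 as deposited. *Wnt9b* was at 0.446 ± 0.164 FPKM in the sham and 0.657 ± 0.283 FPKM in the AAN group (SD, n = 4 and 6), and *Wnt6* had a log2 fold change of 0.63 (limma adjusted p = 0.2). The other 5 ligands, *Wnt1*, *Wnt2b*, *Wnt3*, *Wnt8a* and *Wnt8b*, were under the filter, and the highest value of any of them in any mouse was 0.185 FPKM, for *Wnt8a* in 1 AAN mouse.

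The make-up of the ligand pool differed with its size. The summed level of the 18 ligand genes was 2.02, 1.92, 1.85 and 3.11 FPKM in the sham mice and 12.4, 15.3 and 18.7 FPKM (lowest, median, highest) in the AAN mice. *Wnt4*, *Wnt7b*, *Wnt10a* and *Wnt2* together held 29.9% to 39.2% of that sum in the sham and 68.7% to 82.5% in the AAN mice. The 68.7% was that of mouse B614, and the other AAN mice had 80.1% to 82.5%. *Wnt5a*, *Wnt5b* and *Wnt9b* held 44.3% to 57.2% in the sham and 5.69% to 21.7% in the AAN mice. Here too B614 stood apart at 21.7%, beside 5.69% to 8.4% in the other AAN mice. In sham mice *Wnt9b* held 19.9% ± 3.86 and *Wnt5b* 18.7% ± 8.86 (SD, n = 4), which do not differ beyond their spread. In AAN mice *Wnt7b* held 29.8% ± 6.27 and *Wnt4* 27.1% ± 5.78 (SD, n = 6). These shares do not depend on a scaling of whole mice. The 2 sets of ligands were put together after their values were seen, so no test is given.

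**Figure D2:**
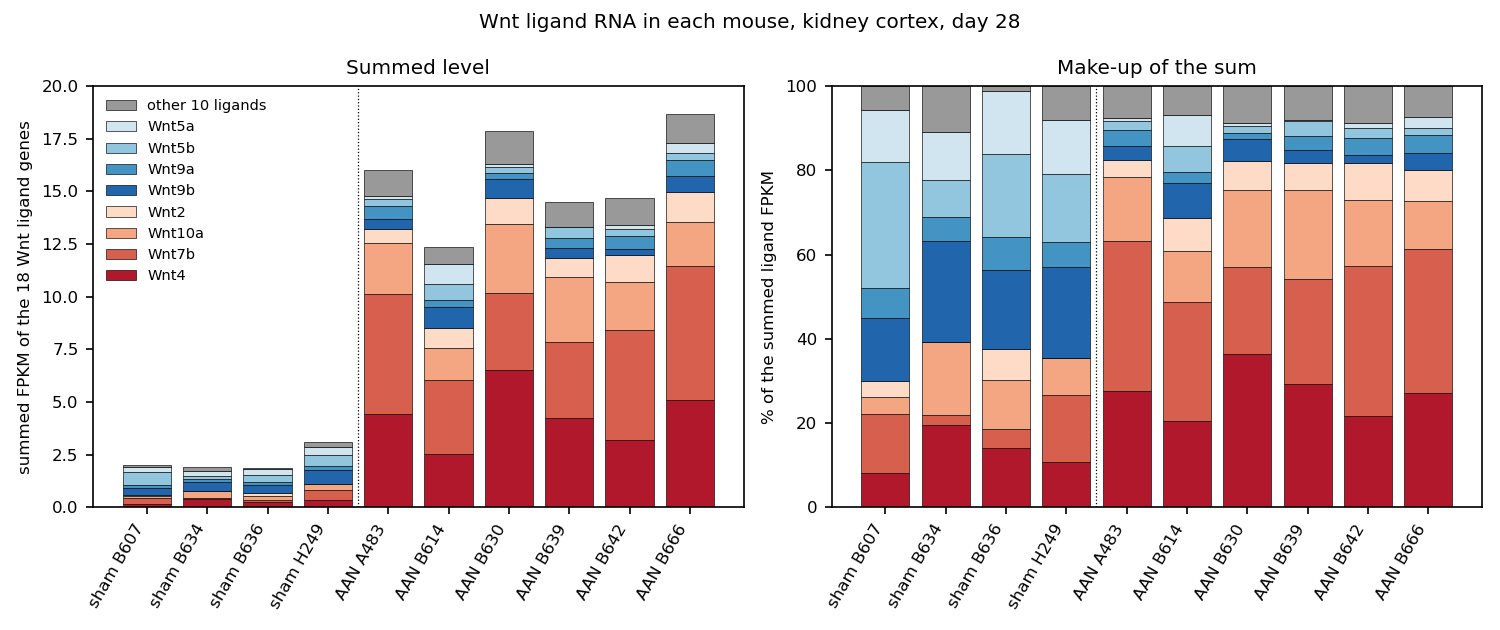
Summed FPKM of the 18 Wnt ligand genes in each of the 10 mice (left) and the share of each ligand in that sum in percent (right), with 1 stacked bar per mouse. The sums lie between 1.85 and 3.11 FPKM in sham mice and between 12.4 and 18.7 FPKM in AAN mice, and the red parts (*Wnt4*, *Wnt7b*, *Wnt10a*, *Wnt2*) make up 68.7% or more of every AAN bar.

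Neither gene that makes Wnt proteins ready for export was called. *Porcn*, the acyltransferase that attaches the lipid to Wnt proteins, was at 0.898, 0.833, 0.872 and 0.765 FPKM in sham mice and at 1.18, 1.47 and 1.96 FPKM (lowest, median, highest) in AAN mice. All AAN mice were above all sham mice, but the log2 fold change of 0.79 (SE 0.18, limma adjusted p = 0.0025) was under 2-fold and 0.04 above the median of all genes. *Wls*, the carrier that takes Wnt proteins to the cell surface, was much more abundant and overlapped between the groups, at 9.84 ± 4.21 FPKM in the sham and 12.6 ± 4.34 FPKM in the AAN group (SD, n = 4 and 6). Its log2 fold change was 0.38 as deposited and -0.38 with the median of ratios.

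Of the 10 Frizzled genes, which encode the seven-pass receptors for Wnt proteins, 8 were tested and 5 rose. *Fzd1* (chromosome 5 from 4753839 to 4758035, minus strand) was the most abundant receptor in AAN mice by mean level. It was at 11.02, 5.16, 7.82 and 8.24 FPKM in sham mice and at 13.1, 18.1 and 20.9 FPKM (lowest, median, highest) in AAN mice. The groups did not overlap, and the log2 fold change was 1.13 (SE 0.22, limma adjusted p = 0.000919).

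*Fzd7*, a receptor often linked to stem cells and to epithelial tumours, was at 6.41, 3.83, 4.79 and 4.36 FPKM in sham mice and at 7.82 to 14.1 FPKM in AAN mice, with a mean of 10.4 FPKM. *Fzd6*, a receptor of planar cell polarity, was at 3.82, 1.77, 3.06 and 3.77 FPKM in sham mice and at 6.74, 8.20 and 9.21 FPKM (lowest, median, highest) in AAN mice. Neither gene overlapped between the groups, and their log2 fold changes were 1.09 (SE 0.20) and 1.40 (SE 0.22). *Fzd2*, a receptor for *Wnt5a* among other ligands, was at 1.19, 0.620, 0.398 and 0.464 FPKM in sham mice and at 0.933, 1.64 and 2.87 FPKM in AAN mice. Here 1 AAN mouse fell within the sham range, and the log2 fold change was 1.28 (SE 0.33, limma adjusted p = 0.0057).

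Set against the general shift of the values, the increases of the receptors were smaller. Relative to the median of all genes, *Fzd1*, *Fzd2*, *Fzd3*, *Fzd6* and *Fzd7* stood higher by 0.34 (*Fzd7*) to 0.65 (*Fzd6*) on the log2 scale. None of the 5 kept the 2-fold call under the median of ratios or quantile normalization, where *Fzd3* was at 0.51 and -0.17. Without sham mouse B634, which had the lowest *Fzd1* and *Fzd7* levels, the log2 fold changes of *Fzd1* and *Fzd7* were 0.93 and 0.98, under the 2-fold limit, and without AAN mouse B614 that of *Fzd7* was 0.99. *Fzd8*, at 3.20 ± 0.415 FPKM in the sham and 6.33 ± 0.896 FPKM in the AAN group (SD, n = 4 and 6), missed the 2-fold limit with a log2 fold change of 0.96. *Fzd5* and *Fzd4* did not pass, and *Fzd9* and *Fzd10* were under the filter.

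The co-receptors *Lrp5* and *Lrp6*, which must be joined to Frizzled for β-catenin signalling, did not pass. *Lrp6* was at 9.20, 3.78, 4.15 and 4.46 FPKM in sham mice and at 6.16, 6.65 and 10.8 FPKM (lowest, median, highest) in AAN mice. A single sham mouse, B607, lay inside the AAN range, and the 3 others lay below every AAN mouse. The log2 fold change was 0.49 (SE 0.25, limma adjusted p = 0.114), and 0.65 (limma adjusted p = 0.00104) without the mice B607 and B614, which is still under 2-fold. *Lrp5* had 0.59 (SE 0.37, limma adjusted p = 0.185). With the median of ratios both turned negative, to -0.14 for *Lrp5* and -0.26 for *Lrp6*.

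R-spondins are secreted proteins that bind Lgr receptors and take the ubiquitin ligases *Rnf43* and *Znrf3*, which remove Frizzled from the membrane, out of action. *Rnf43*, itself a target of β-catenin, was the 1 gene of this arm that rose. Its level was 0.196 ± 0.0511 FPKM in the sham and 0.610 ± 0.206 FPKM in the AAN group (SD, n = 4 and 6), with a log2 fold change of 1.23 (SE 0.25, limma adjusted p = 0.00121) and no overlap. The call was lost under the median of ratios (0.66) and quantile normalization (-0.05). *Lgr4* was by far the most abundant gene of the arm and did not pass, at 16.6 ± 5.87 FPKM in the sham and 18.2 ± 5.59 FPKM in the AAN group (SD, n = 4 and 6). Its log2 fold change was 0.15 as deposited and -0.61 with the median of ratios. *Znrf3*, *Rspo1* and *Rspo3* did not pass, with log2 fold changes of 0.59, 0.94 and 0.85. *Lgr5*, *Rspo4* and *Rspo4os* were under the filter, at no more than 0.191 FPKM in any mouse.

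The secreted antagonists were divided. *Dkk3* (chromosome 7 from 112116017 to 112159057, minus strand), a dickkopf relative that does not act on the co-receptors in the way *Dkk1* does and is made by stressed tubule cells, rose most. Its level was 2.11, 2.59, 2.04 and 1.57 FPKM in sham mice and 11.4, 14.3 and 18.8 FPKM (lowest, median, highest) in AAN mice. The lowest AAN mouse stood well above the highest sham mouse. The log2 fold change of *Dkk3* was 2.73 (SE 0.18, limma adjusted p = 3.52e-07), and it was 1.98 with the median of ratios and 1.95 with quantile normalization.

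*Frzb*, a secreted decoy that binds Wnt proteins, was at 4.22, 2.53, 2.53 and 3.43 FPKM in sham mice and at 4.74, 7.22 and 12.8 FPKM (lowest, median, highest) in AAN mice. Its groups did not overlap, and its log2 fold change was 1.23 (SE 0.26, limma adjusted p = 0.00143). The call was lost at 0.48 with the median of ratios (limma adjusted p = 0.102) and at 0.45 with quantile normalization (limma adjusted p = 0.142). *Sfrp5*, a decoy of the same family, was at 0.361, 0.697, 0.543 and 0.192 FPKM in sham mice and at 0.645, 1.02 and 1.65 FPKM in AAN mice, so that the groups overlapped by 1 AAN mouse. Its log2 fold change of 1.14 (SE 0.33, limma adjusted p = 0.0107) rested on sham mouse H249, which had the lowest value. Without that mouse it was 0.87, under 2-fold, and with quantile normalization it was -0.11. *Sfrp4* rose from 0.152 ± 0.116 (SD, n = 4) to 0.574 ± 0.218 FPKM (SD, n = 6), with a log2 fold change of 1.51 that was 1.07 with the median of ratios and 0.29, no longer called, with quantile normalization.

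The most abundant antagonist, *Sfrp1*, did not change by the test. Its sham levels were 39.98, 15.8, 16.8 and 24.1 FPKM, and its AAN levels 14.9, 22.3 and 68.6 FPKM (lowest, median, highest), with a log2 fold change of 0.11 (SE 0.40, limma adjusted p = 0.82) that turned to -0.65 with the median of ratios. The single highest mouse of each group, B607 and B614, lay far above the rest. *Sfrp1* took 55.6% to 78.1% of the summed antagonist level in the sham and 30.7% to 71.2% in the AAN mice, and *Dkk3* 4.12% to 9.14% and 14.03% to 31.3%. B614 gave the 71.2% of *Sfrp1* and the 14.03% of *Dkk3*. The other AAN mice had 30.7% to 43.1% and 19.8% to 31.3%. *Dkk2*, an antagonist that acts through *Lrp5* and *Lrp6*, did not overlap between the groups but missed the 2-fold limit, at 3.08 ± 0.633 FPKM in the sham and 6.10 ± 0.914 FPKM in the AAN group (SD, n = 4 and 6). *Sfrp2* and *Wif1*, a decoy and a Wnt-binding inhibitor, did not pass, with log2 fold changes of 0.19 and 0.55 that were -0.54 and -0.04 with the median of ratios. *Dkk1*, which blocks the co-receptors, was under the filter, with no more than 3 fragments in any sham mouse and 7 in any AAN mouse. The summed ligand level was 3.95% to 8.29% of the summed antagonist level in the sham and 12.9% to 31.0% in the AAN mice, a ratio that does not depend on the scaling of whole mice. The 12.9% was that of B614, and the other AAN mice had 28.0% to 31.0%.

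Inside the cell, *Axin2* was the 1 gene of the cytoplasmic relay that rose. *Axin2* (ENSMUSG00000000142, chromosome 11 from 108920349 to 108950783, plus strand) builds the complex that destroys β-catenin and is itself switched on by β-catenin, which makes it the usual readout of the canonical pathway. Its level was 0.0664, 0.0220, 0.0424 and 0.0494 FPKM in sham mice and 0.494, 0.778 and 0.841 FPKM (lowest, median, highest) in AAN mice. The sham levels were near those of 3 fragments over its longest transcript, 0.0404 to 0.0447 FPKM, and no AAN mouse came near them. The log2 fold change was 2.45 (SE 0.23, limma adjusted p = 3.2e-06), and it was 2.04 with the median of ratios, 1.15 with quantile normalization and 0.70 with a pseudocount of 1. *Gm11670* overlaps exons of *Axin2*, and since strand use is not stated, reads of the 2 genes cannot be told apart there.

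*Ctnnb1*, which encodes β-catenin, is controlled mainly at the level of the protein, and its RNA was abundant in both groups. It was at 41.3, 18.7, 20.2 and 24.9 FPKM in sham mice and at 29.1, 42.8 and 47.2 FPKM (lowest, median, highest) in AAN mice. Sham mouse B607 lay within the AAN range. The log2 fold change was 0.65 (SE 0.24, limma adjusted p = 0.0324), under 2-fold and below the median of all genes, and it turned to -0.11 with the median of ratios. *Dvl2*, 1 of the 3 Dishevelled genes, had 0.87 (SE 0.20, limma adjusted p = 0.00284), again under 2-fold. *Axin1*, *Apc*, *Dvl1* and *Dvl3* did not pass, with log2 fold changes of 0.72, 0.96, 0.21 and 0.37.

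The TCF/LEF factors, the DNA-binding partners of β-catenin, held the largest change of all 49 genes. *Tcf7* (ENSMUSG00000000782, chromosome 11 from 52252371 to 52283014, minus strand), which encodes TCF1, was at 0.119, 0.0941, 0.181 and 0.235 FPKM in sham mice and at 4.19, 5.195 and 8.75 FPKM (lowest, median, highest) in AAN mice. The mean was 36.8 times higher in AAN mice. On the log2 scale the change was 4.497 (SE 0.25, limma adjusted p = 1.55e-07), and 3.91 and 3.39 with the median of ratios and with quantile normalization. *Lef1* was at 0.0679, 0.0137, 0.00657 and 0.0328 FPKM in sham mice and at 0.234, 0.504 and 0.683 FPKM in AAN mice. It did not overlap either, with a log2 fold change of 2.10 (SE 0.29, limma adjusted p = 6.74e-05) and a value of 0.76, no longer 2-fold, under quantile normalization. With a pseudocount of 1 the log2 fold change of *Lef1* was 0.51. Its sham levels other than that of B607 lay under those of 3 fragments over its longest transcript, 0.0471 to 0.0521 FPKM. *Gm43352* overlaps exons of *Lef1*, and with strand use not stated, reads of the 2 genes cannot be told apart there.

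*Tcf7* and *Lef1* are also leading genes of T cells, and T cell markers moved with them. All 8 T cell markers (*Cd3d*, *Cd3e*, *Cd3g*, *Cd4*, *Cd8a*, *Cd8b1*, *Lck*, *Trbc2*) were called higher in AAN mice. Their summed level was 1.47 to 5.52 FPKM in the sham and 97.9 to 285 FPKM in the AAN mice, and *Cd3d* was listed at 0 in 1 sham mouse. Their part in the change of *Tcf7* and *Lef1* was not tested. *Tcf7l1*, which encodes the mostly repressive factor TCF3, was at 1.07, 0.5675, 1.07 and 0.949 FPKM in sham mice and at 1.79, 2.05 and 2.67 FPKM in AAN mice. It rose by 1.15 on the log2 scale (SE 0.20, limma adjusted p = 0.000429) without overlap, but by 0.45 with the median of ratios and 0.04 with quantile normalization, and by 0.96 without sham mouse B634. *Tcf7l2* passed the adjusted p with a log2 fold change of 0.80, under 2-fold. In sham mice *Tcf7l1* held 70.6% ± 4.93 of the summed level of the 4 factors (SD, n = 4), and in AAN mice *Tcf7* held 64.8% ± 7.70 (SD, n = 6).

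**Figure D3:**
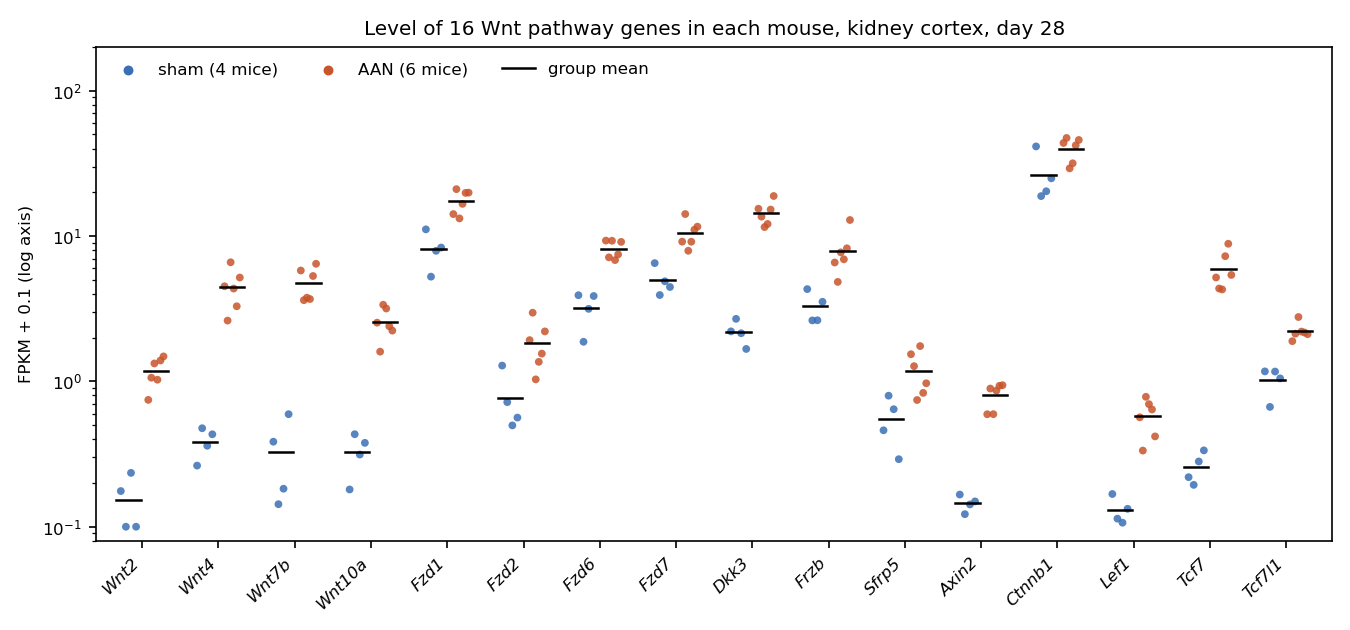
Level of 16 Wnt pathway genes in each mouse as FPKM + 0.1 on a log axis, with blue points for the 4 sham mice, red points for the 6 AAN mice and black bars for the group means. *Tcf7* lies at 0.0941 to 0.235 FPKM in the sham and 4.19 to 8.75 FPKM in the AAN mice without the added 0.1, while *Fzd2*, *Sfrp5* and *Ctnnb1* overlap between the groups.

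The promoters of the Wnt genes were searched for the letters that TCF/LEF factors bind. Promoter sequences from RefSeq (GRCm38.p6, 250 bases before to 50 after a transcript start) were at hand for 40 of the 60 genes, with 50 promoters in all. The 4 printed first belong to *Axin2*, the usual readout of the pathway, to *Wnt4* and *Wnt2* as ligands that rose under every scaling, and to *Tcf7* as the gene with the largest change. The last is that of *Wnt11*, the 1 gene called higher that held a match, with the match in capitals. All are written 5′ to 3′ on the strand of the gene.
*Axin2*, chr11:108920099-108920398, plus strand: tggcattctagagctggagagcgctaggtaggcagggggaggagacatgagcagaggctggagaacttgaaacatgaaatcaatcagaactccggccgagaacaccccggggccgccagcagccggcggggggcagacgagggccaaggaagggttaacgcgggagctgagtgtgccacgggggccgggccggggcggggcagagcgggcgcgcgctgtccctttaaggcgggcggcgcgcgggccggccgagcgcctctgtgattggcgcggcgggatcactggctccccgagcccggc
*Wnt4*, chr4:137277385-137277684, plus strand: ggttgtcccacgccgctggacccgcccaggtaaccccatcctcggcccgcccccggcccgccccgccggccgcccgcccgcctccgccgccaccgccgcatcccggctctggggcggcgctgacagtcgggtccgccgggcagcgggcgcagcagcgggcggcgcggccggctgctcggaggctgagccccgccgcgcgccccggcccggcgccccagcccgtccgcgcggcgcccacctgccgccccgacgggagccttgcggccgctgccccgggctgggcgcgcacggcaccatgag
*Wnt2*, chr6:18030396-18030695, minus strand: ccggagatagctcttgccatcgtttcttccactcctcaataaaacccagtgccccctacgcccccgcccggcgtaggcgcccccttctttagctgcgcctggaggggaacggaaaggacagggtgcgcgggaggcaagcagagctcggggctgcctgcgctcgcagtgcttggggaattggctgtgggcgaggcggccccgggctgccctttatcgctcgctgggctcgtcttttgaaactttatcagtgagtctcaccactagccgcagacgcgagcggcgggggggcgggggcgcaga
*Tcf7*, chr11:52282965-52283264, minus strand: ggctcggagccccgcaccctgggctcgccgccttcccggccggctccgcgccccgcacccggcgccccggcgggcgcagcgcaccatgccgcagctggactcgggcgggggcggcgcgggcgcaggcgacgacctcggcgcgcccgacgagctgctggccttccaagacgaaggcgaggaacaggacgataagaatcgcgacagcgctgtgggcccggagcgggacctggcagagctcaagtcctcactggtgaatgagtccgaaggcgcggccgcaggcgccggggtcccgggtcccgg
*Wnt11*, chr7:98834862-98835161, plus strand: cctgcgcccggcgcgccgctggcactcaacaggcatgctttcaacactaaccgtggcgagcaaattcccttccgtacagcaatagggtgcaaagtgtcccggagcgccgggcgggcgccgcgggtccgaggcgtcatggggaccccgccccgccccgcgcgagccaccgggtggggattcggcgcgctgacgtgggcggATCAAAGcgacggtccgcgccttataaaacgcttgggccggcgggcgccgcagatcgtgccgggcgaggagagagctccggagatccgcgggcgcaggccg

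The motifs searched were CTTTGAT and CTTTGAA on both strands. They differ in the last letter alone, so that 1 position can match 1 of them at most. Either one was found in 8.65% of 32851 RefSeq promoters of the same length. CTTTGAT was found in 3.73% and CTTTGAA in 5.14%, and promoters that hold both count in each. Of the 50 promoters of Wnt genes, 3 (6.00%) held a match: CTTTGAT read on the minus strand 51 bases before the start of *Wnt11*, CTTTGAT 71 bases before a start of *Wnt5b*, and CTTTGAA 117 bases before the start of *Dkk1*. With 3 matches, whether their share differs from the 8.65% of all promoters cannot be said, and it was not tested. Among the 16 genes called higher that had a promoter in the table, *Wnt11* was the 1 with a match. *Wnt5b* was not called as deposited, and *Dkk1* was under the filter and not tested. The promoters of *Axin2*, *Wnt4*, *Wnt2* and *Tcf7* printed above hold neither motif, which says only that these letters are not in these windows. Their content of G and C was 65.7% (*Wnt2*), 70.0% (*Axin2*), 76.3% (*Tcf7*) and 84.3% (*Wnt4*), beside a median of 52.7% over all promoters. The other promoter of *Tcf7*, not printed, had 64.3%, and the promoters of *Wnt11* had 71.3% (printed) and 59.3%. Those of *Lef1*, also called higher, ranged from 43.7% to 67.3%, on both sides of that median. The content was not compared with that of Wnt genes that were not called.

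Genes that regulate the pathway but are not covered by the choice of symbols were read from a list of 64 genes, of which 59 were tested. In AAN mice 22 of them rose and 2 fell, beside 35.8% and 3.43% of all genes, and their median log2 fold change was 0.85 beside 0.75 for all genes. With the median of ratios 10 were higher and 5 lower, beside 19.0% and 10.5% of all genes, and with quantile normalization 6 and 4, beside 13.0% and 12.6%. *Nkd2* and *Nkd1*, which bind Dishevelled and dampen the signal, rose together. *Nkd2* was at 0.0577, 0.0911, 0.131 and 0.0700 FPKM in sham mice and at 2.12 to 6.21 FPKM in AAN mice, a log2 fold change of 4.62 (SE 0.28, limma adjusted p = 1.89e-07). Its sham mean of 0.0876 FPKM was under the level filter, which it passed through the AAN mice alone. *Nkd1* rose from 0.250 ± 0.0224 (SD, n = 4) to 2.98 ± 0.945 FPKM (SD, n = 6). *Gpc3*, a glypican that holds Wnt proteins at the cell surface, rose by 2.74 on the log2 scale, and *Dact3*, a Dishevelled-binding inhibitor, by 2.73. These 4 were higher under all 3 scalings as well.

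The 2 regulators that fell act outside the cell. *Notum*, an enzyme that takes the lipid off Wnt proteins and so silences them, was at 3.95, 4.80, 6.34 and 5.51 FPKM in sham mice and at 0.609 to 1.69 FPKM in AAN mice. The groups did not overlap, and the log2 fold change was -2.31 (SE 0.28, limma adjusted p = 2.55e-05), with values from -3.24 to -1.97 under the 3 scalings. *Sost*, which encodes the *Lrp5* and *Lrp6* blocker sclerostin and is named here after its value was seen, fell from 0.999 ± 0.273 (SD, n = 4) to 0.0891 ± 0.0513 FPKM (SD, n = 6), with a log2 fold change of -2.56.

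Of 35 genes known as targets of β-catenin in one tissue or another, all 35 tested, 19 rose and 2 fell, beside 35.8% and 3.43% of all genes, and the median log2 fold change was 1.304. With the median of ratios 16 were higher and 4 lower, beside 19.0% and 10.5% of all genes. Many of them are also induced by injury through other routes. *Mmp7*, a metalloprotease of injured tubules, was listed at 0 in 3 sham mice and at 0.0568 FPKM in the other, and at 5.01 to 17.0 FPKM in AAN mice. *Cd44*, the hyaluronan receptor, rose from 0.106 ± 0.0485 to 9.32 ± 3.01 FPKM (SD, n = 4 and 6). *Fosl1*, an AP-1 subunit, rose from 0.0167 ± 0.0335 to 2.33 ± 1.10 FPKM. In none of these 3 did the groups overlap, but *Mmp7* and *Fosl1* passed the level filter through the AAN mice alone and so had to differ. *Sp5*, a transcription factor that is among the most direct β-catenin targets, went the other way. It was at 8.02, 8.50, 9.66 and 8.43 FPKM in sham mice and at 2.95 to 4.61 FPKM in AAN mice, a log2 fold change of -1.17 (SE 0.17, limma adjusted p = 9.2e-05). It was -0.81 and under the limit when every mouse was scaled to the same FPKM total. *Notum*, the other target that fell, is counted in both lists, as are *Nkd1* and *Apcdd1*, which rose. *Axin2*, *Nkd1* and *Lef1* rose in the same mice in which *Notum* and *Sp5* fell.

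Markers of cell types found in cortex were present in both groups, and no set for medulla was examined. The 10 proximal tubule markers summed to 2465 to 4868 FPKM in the sham and 771 to 2449 FPKM in the AAN mice, and 7 of them were called lower. All 8 injured tubule markers, all 9 of fibroblasts and mural cells and all 8 of macrophages were called higher. The injured tubule sum was 148 to 245 FPKM in the sham and 1458 to 3662 FPKM in the AAN mice, the fibroblast and mural sum 33.1 to 49.6 and 144 to 349 FPKM, and the macrophage sum 37.9 to 60.9 and 624 to 2149 FPKM. Mouse B614 had the highest proximal tubule sum of the AAN mice, the others being at 771 to 1157 FPKM. It had the lowest injured tubule, fibroblast and mural, and macrophage sums. There the other AAN mice were at 2041 to 3662, 220 to 349 and 1274 to 2149 FPKM. Its thick limb sum was 2007 FPKM, beside 203 to 531 FPKM in the other AAN mice. Of the 6 B cell markers 4 could be tested and all 4 were higher, with a sum of 0.674 to 1.28 and 3.95 to 9.92 FPKM. The markers of the thick limb gave 1 lower, of the distal tubule and collecting duct 1 lower, of podocytes 2 higher and of endothelium 0 in either direction. The part of these shifts in the Wnt gene levels was not tested.

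The deviations of sham mouse B607 and AAN mouse B614 ran together. Across the 17129 genes tested, those of the 2 mice from the other mice of their group correlated with r = 0.534, and across the 49 Wnt genes with r = 0.593, while the 23 other pairs of a sham and an AAN mouse gave -0.416 to 0.264 across all genes. These correlations are across genes, which are not independent replicates. Of the 49 Wnt genes, 17 (34.7%) were highest of their group in both mice, beside 20.02% of all genes. *Fzd4*, a receptor also for Norrin, was at 18.01 FPKM in B607 and 2.33 to 4.43 FPKM in the other sham mice, and at 27.4 FPKM in B614 and 3.80 to 7.20 FPKM in the other AAN mice. Its log2 fold change was 0.47 (SE 0.62, limma adjusted p = 0.523) with all mice, -0.28 with the median of ratios, and 0.69 (limma adjusted p = 0.0466) without these 2 mice. The deviation was larger in genes with longer transcripts, with a Spearman rho across genes of 0.376 in B607 and 0.277 in B614.

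Leaving out both mice changed few calls. Then 24 of the 49 Wnt genes were called higher and 0 lower, and 22 of these were among the 23 called with all mice, where 43.5% of all genes were called, 39.8% higher and 3.67% lower. *Wnt16* lost the call, with a log2 fold change of 0.93, and *Dvl2* (1.06) and *Rspo1* (1.202) gained it. *Wnt4*, *Wnt7b*, *Wnt10a*, *Wnt2*, *Dkk3*, *Axin2* and *Tcf7* had log2 fold changes of 3.47, 4.29, 2.86, 3.13, 2.76, 2.48 and 4.51 without them.

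**Figure D4:**
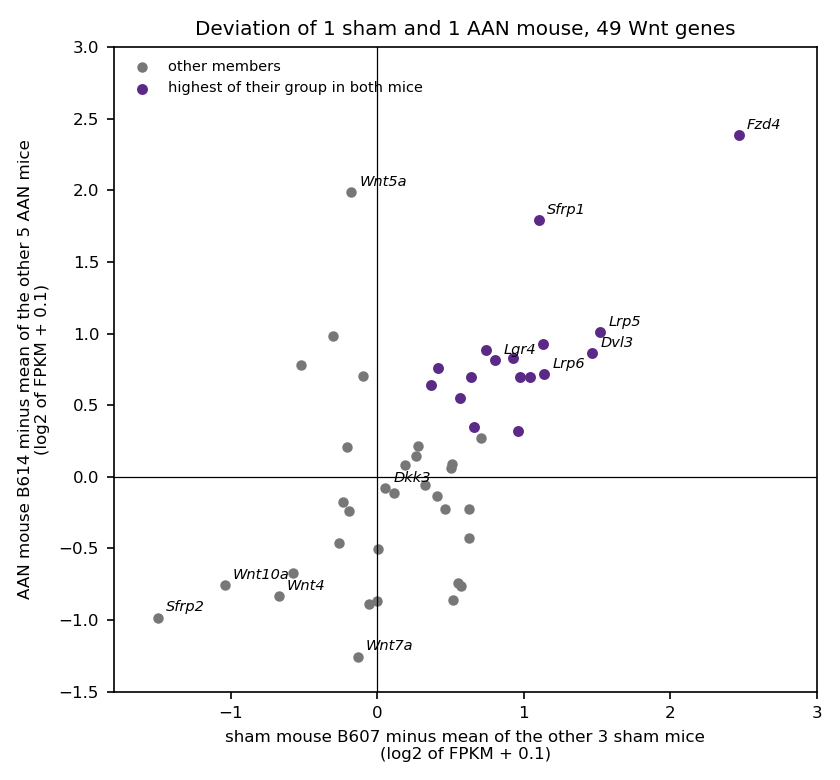
Difference of sham mouse B607 from the mean of the other 3 sham mice (x axis) against that of AAN mouse B614 from the other 5 AAN mice (y axis), on the log2 scale of FPKM + 0.1, with 1 point for each of the 49 Wnt genes tested. The 17 purple genes, with *Fzd4* and *Sfrp1* at the far end, were highest of their group in both mice, and *Sfrp2*, *Wnt10a* and *Wnt4* were low in both.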

How the data were processed

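RNA of kidney cortex from 4 sham and 6 AAN mice was sequenced, 1 library per mouse. The authors aligned the reads to mm10 with Hisat2 2.0.4 and deposited FPKM values per gene made with Stringtie 1.3.0. Their annotation release and strand setting are not given in the sources used here. Symbols and positions came from GENCODE M21 on GRCm38 (21650 of 21792 gene identifiers matched), and 13 of the 60 Wnt genes share exon positions with another gene. The depth was recovered from the steps between low values of 5605 genes with 1 transcript. Each mouse had 1022 to 1587 such values above 0. Of these, 95.1% to 97.0% came out whole within 0.05 of a fragment, and the depth was chosen by that share. FPKM are not counts, so log2(FPKM + 0.1) was fitted with limma 3.58.1 (trend and robust, R 4.3.3) over the 17129 genes whose mean reached 0.1 FPKM, and fold changes of low genes are understated on this scale. A p-value sets the difference between the group means against the spread between mice, which limma moderates with that of all genes. The other pseudocounts, filters, scalings, limits and left-out mice are described in the closing section.

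The Wnt genes and the lists of regulators, targets and cell markers were chosen with earlier results of these data known. Values by mouse were given, by rule, for *Ctnnb1*, *Axin2*, *Lef1* and every called Wnt gene whose higher group reached a mean of 1 FPKM, and regulators and targets were named as the 4 called genes of each list with the largest change in each direction, at a mean of 1 FPKM or more. Of these, 1 gene is not reported here. Other Wnt genes with values were singled out after their values were seen. Promoters without an entry (*Apc*, *Axin1*, *Dkk3*, *Fzd2*, *Fzd3*, *Fzd6*, *Fzd8*, *Lgr5*, *Lrp5*, *Lrp6*, *Porcn*, *Rspo3*, *Rspo4os*, *Sfrp1*, *Sfrp4*, *Wnt10a*, *Wnt5a*, *Wnt7b*, *Wnt8a*, *Znrf3*) were not searched. The fit was tested on simulated data. Python 3.11.15 with scipy 1.17.1, matplotlib 3.10.9, pandas 2.3.3 and numpy 2.4.6 served for all else.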

Additional observations from a re-analysis of the deposited data

Results flagged for a closer look

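Among 48 sets of mice examined for a mouse far from the others of its group, 3 had such a mouse, where chance alone gives about 1 in 20 sets, or 2.4 here. The *Tcf7l1* level of AAN mouse B630 was 2.673 FPKM, above the 1.792 to 2.102 FPKM of the other AAN mice. The summed level of the Wnt ligands in sham mouse H249 was 3.108 FPKM, while the other sham mice had 1.847 to 2.021 FPKM. The summed level of the co-receptors *Lrp5* and *Lrp6* in AAN mouse B614 was 17.8 FPKM, while the other AAN mice had 9.064 to 11.06 FPKM. Mouse B614 is the AAN mouse whose deviations ran with those of sham mouse B607.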

How the results depend on the processing

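No paired analysis was possible because the groups hold different mice and their numbers follow accession order alone. The 23 Wnt genes called higher and 0 lower became 8 and 0 with a pseudocount of 1, 11 and 0 with a mean of at least 1 FPKM, 12 and 0 with the median of ratios, and 7 and 2 with quantile normalization. The 22 regulators called higher and 2 lower became 7 and 1, 12 and 1, 10 and 5, and 6 and 4 under the same settings in turn, then 35 higher with the same FPKM total, and 37 and 4 without the fold limit. Of the target genes, 19 higher and 2 lower, 4 were lower with the median of ratios and 1 with the same FPKM total. Over all genes, 6126 higher and 588 lower became 2909 higher with a pseudocount of 1, 4025 higher with a mean of at least 1 FPKM, 3261 and 1801 with the median of ratios, 2232 and 2157 with quantile normalization, 332 lower with the same FPKM total, and 9482 and 1027 without the fold limit. Leaving out 1 mouse at a time gave 20 to 25 Wnt genes higher and 0 lower, 18 to 26 regulators higher and 2 lower, 18 to 20 targets higher and 2 lower, and 5488 to 6684 genes higher and 524 to 703 lower. The log2 fold change turned to -0.11 for *Ctnnb1* with the median of ratios (limma adjusted p = 0.635) and to -0.11 for *Sfrp5* with quantile normalization (limma adjusted p = 0.826). The pseudocount, the filter and the fold limit act on low or small changes by construction, and for the scalings the cause was not tested. With a pseudocount of 0.01, 24 Wnt genes were higher and 0 lower. Without the level filter, or with limma without trend and robust, 23 were higher and 0 lower. The mice whose tag begins with B, 3 sham and 5 AAN, also gave 23 higher and 0 lower, with *Dkk2* in place of *Sfrp5*. Leaving out B607 and B614 together was chosen after the data were seen. The fits planned for counts were not run, since the values are FPKM. Levels under about 0.1 FPKM rest on few fragments, and differences there were not detectable at this depth unless large.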
